A study of Homo sapiens with 9 samples.

Results

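The interferon response genes of MP41 cells were followed after transfection of synthetic double-stranded miRNA mimics. The group was a list of 51 gene symbols, and 45 of them had a row among the 14839 genes of the deposited expression table. The other 6 genes (MX2, OAS2, OASL, IFI27, IFI44L, and XAF1) were not analysed here. The question was whether the mimics set off an innate response, with the control mimic, with miR-16, or with both.

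MP41 is an established uveal melanoma cell line with a GNA11 mutation. The polyA RNA of these cells was sequenced in 9 libraries, 1 per condition: 1 at 0 h, the starting time point, which carries the label of the control mimic, and 1 at each of 6, 12, 24, and 48 h with miR-16 or with the control mimic miR-CTR. Each mimic was transfected at 66 nM with Lipofectamine RNAiMAX, so all 8 later libraries share the line, the lipid, and the dose. No untransfected or lipid-only library after 0 h was analysed here, and the mimic, the lipid, and the time in culture therefore cannot be told apart in a comparison with 0 h. With 1 library per condition there is no replicate error, and the comparisons with 0 h and those within a window have no test. Between the mimics the 4 times give 4 pairs of libraries, and 1 test over these pairs is given below. The errors given are standard errors from the number of reads, and they cover counting error only.

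The values are log2(normalized reads + 1), and a difference is a difference between 2 such values. The early window averages the libraries of 6 and 12 h, and the late window those of 24 and 48 h. A gene was counted as higher or lower where its window difference was past 0.5, which is 1.41-fold. The comparisons with 0 h all share the same 0 h library, so its counting error enters every one of them. The depth recovered from the values was between 20270000 and 27370000 reads per library, with a median gene of 487 to 674 reads. All 8 melanocyte lineage markers examined were present (MLANA, PMEL, TYR, TYRP1, DCT, MITF, SOX10, and S100B), and together they held 1.72% to 2.18% of the normalized reads of each library. Of 7 leukocyte markers, CD68 was the 1 with a row, at 5.46 to 5.86. Of 8 markers of fibroblast, endothelial, or epithelial cells, 2 had a row, COL1A1 at 8.04 to 8.86 and PDGFRB on 10 to 45 reads. PDGFRB, the receptor of a platelet-derived growth factor, had a late difference from 0 h of -1.19 with miR-CTR and 0.605 with miR-16, and its part in the results was not tested.

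Double-stranded RNA in the cytoplasm is detected by the helicases RIG-I and MDA5, and in endosomes by TLR3. These sensors drive the synthesis of type I interferons, which act back on the cell through a receptor, the kinases JAK1 and TYK2, and transcription factors that include STAT2 and IRF9. These factors bind a DNA element in the promoters of interferon-stimulated genes, whose products block viral RNA, tag proteins with ISG15, and raise antigen presentation. Short duplexes without a free triphosphate are usually weak triggers, and the response to them depends on the sequence, the chemistry, and the cell.

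The sequences of the duplexes are shown because they are the double-stranded RNA to which the cells were exposed. The mature miR-16 is taken from RefSeq (GRCh38.p14). The other strands are the designed strands that the study lists for its biotinylated pull-down duplexes, in which the names of the miR-16 and the control row appear exchanged: the row named for the control holds the miR-16 sequence. Whether the transfected control had the same sequence as the pull-down control is not given in the sources used here. Capitals mark the seed, bases 2 to 8 of the guide.
miR-16 guide: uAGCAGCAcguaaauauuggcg
miR-16 passenger: ccaauauuuacgugcugcuauu
control guide: uUGUACUAcacaaaaguacug
control passenger: guacuuuuguguaguacaauu
The miR-16 strands are 22 bases long and the control strands 21 bases, and the seeds differ.

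In the first hours few interferon response genes moved. With miR-CTR, 4 of 45 (8.89%) were higher than at 0 h in the early window, compared with 3.08% of all genes, and 1 was lower, compared with 3.25% of all genes. With miR-16, 0 of 45 were higher, compared with 2.94% of all genes, and 1 was lower, compared with 3.05%. The median of the 45 genes was 0.035 with miR-CTR and 0.055 with miR-16, and that of all genes 0.005 with either mimic. At 6 h the median difference from 0 h was -0.01 with miR-CTR and -0.05 with miR-16. The 4 genes that were higher with miR-CTR were MX1, IFIT1, IFI44, and HERC6, and 3 of them (MX1, IFI44, and HERC6) belong to the 14 interferon response genes in the lowest 25% of expression. The count was 1 (IFIT1) without the lowest 25% of genes, compared with 0.692% of all genes left. It was also 1 (MX1, 2.22%) when the threshold had to be passed at both times, near the 1.62% of all genes.

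At 24 and 48 h more of them were higher. With miR-CTR, 13 of 45 (28.9%) were higher than at 0 h in the late window, compared with 11.0% of all genes, and 1 was lower, compared with 9.79%. With miR-16, 11 of 45 (24.4%) were higher, compared with 14.1% of all genes, and 0 were lower, compared with 11.7%. The median late difference was 0.21 with miR-CTR and 0.285 with miR-16, and that of all genes was 0.0 and -0.005. Under miR-CTR the median was 0.24 at 24 h and 0.07 at 48 h, and under miR-16 it was 0.24 and 0.25. When the threshold had to be passed at both 24 and 48 h, 10 genes (22.2%) were higher with miR-CTR, compared with 6.56% of all genes, and 7 (15.6%) with miR-16, compared with 8.46%. The summed share of the 45 genes in the normalized reads was 0.156% at 0 h and at most 0.178% with miR-CTR and 0.181% with miR-16, each at 24 h.

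**Figure D1:**
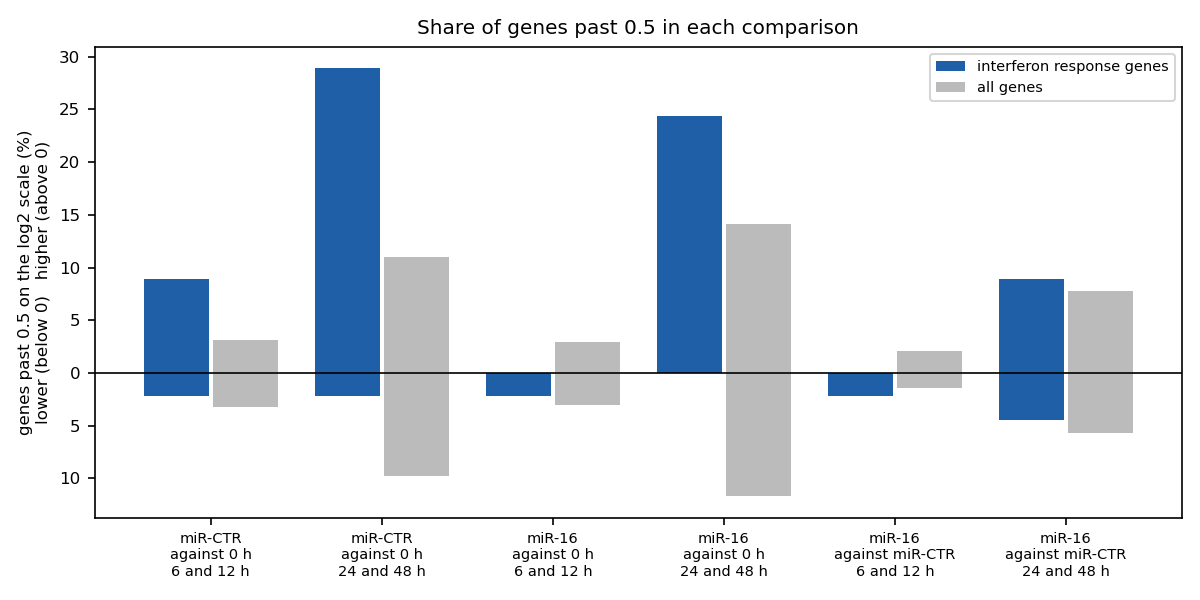
Share of genes past 0.5 on the log2 scale in each of the 6 comparisons, for the 45 interferon response genes (blue) and all 14839 genes (grey). Bars above 0 are genes that were higher and bars below 0 genes that were lower, and the blue bars stand highest in the late comparisons with 0 h (28.9% with miR-CTR, 24.4% with miR-16).

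The late differences occurred while other genes of the cells moved too. Of the 8 melanocyte lineage markers, 3 (37.5%) were past 0.5 upward in the late window with miR-CTR, compared with 11.0% of all genes. These were DCT, SOX10, and S100B. Under miR-16 there were 5 (62.5%, these and MLANA and PMEL), compared with 14.1%. TYRP1 was the 1 marker below 0 h late, by -0.325 with miR-CTR and -0.275 with miR-16. DCT, an enzyme of melanin synthesis, was at 12.29 at 0 h and at 14.38 and 14.26 at 48 h with miR-CTR and miR-16. The summed markers were 1.83% of the normalized reads at 0 h, 1.77% and 2.0% at 24 and 48 h in the miR-CTR arm, and 1.88% and 2.18% in the miR-16 arm. The part of these genes in the late differences of the interferon response genes was not tested.

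The late set can be read in 3 groups. DHX58, IRF9, IFIT1, MX1, PARP9, DTX3L, and SLFN5 were past 0.5 with both mimics. IFIH1, IFI6, IFI35, IFI44, HERC6, and SP100 were past 0.5 with miR-CTR and not with miR-16, and OAS1, ISG15, UBA7, and PSMB8 with miR-16 and not with miR-CTR. A gene past the threshold with 1 mimic was not always apart from the other mimic: IFIH1, for example, was 0.71 higher with miR-CTR and 0.455 higher with miR-16. By contrast, 26 of 45 genes (57.8%) stayed within 0.5 of the 0 h value in both windows with both mimics, compared with 63.43% of all genes. The single 0 h library was below all 8 transfected libraries for 9 of 45 genes (20.0%), compared with 11.95% of all genes, and above them all for 1 (2.22%), compared with 11.34%.

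**Figure D2:**
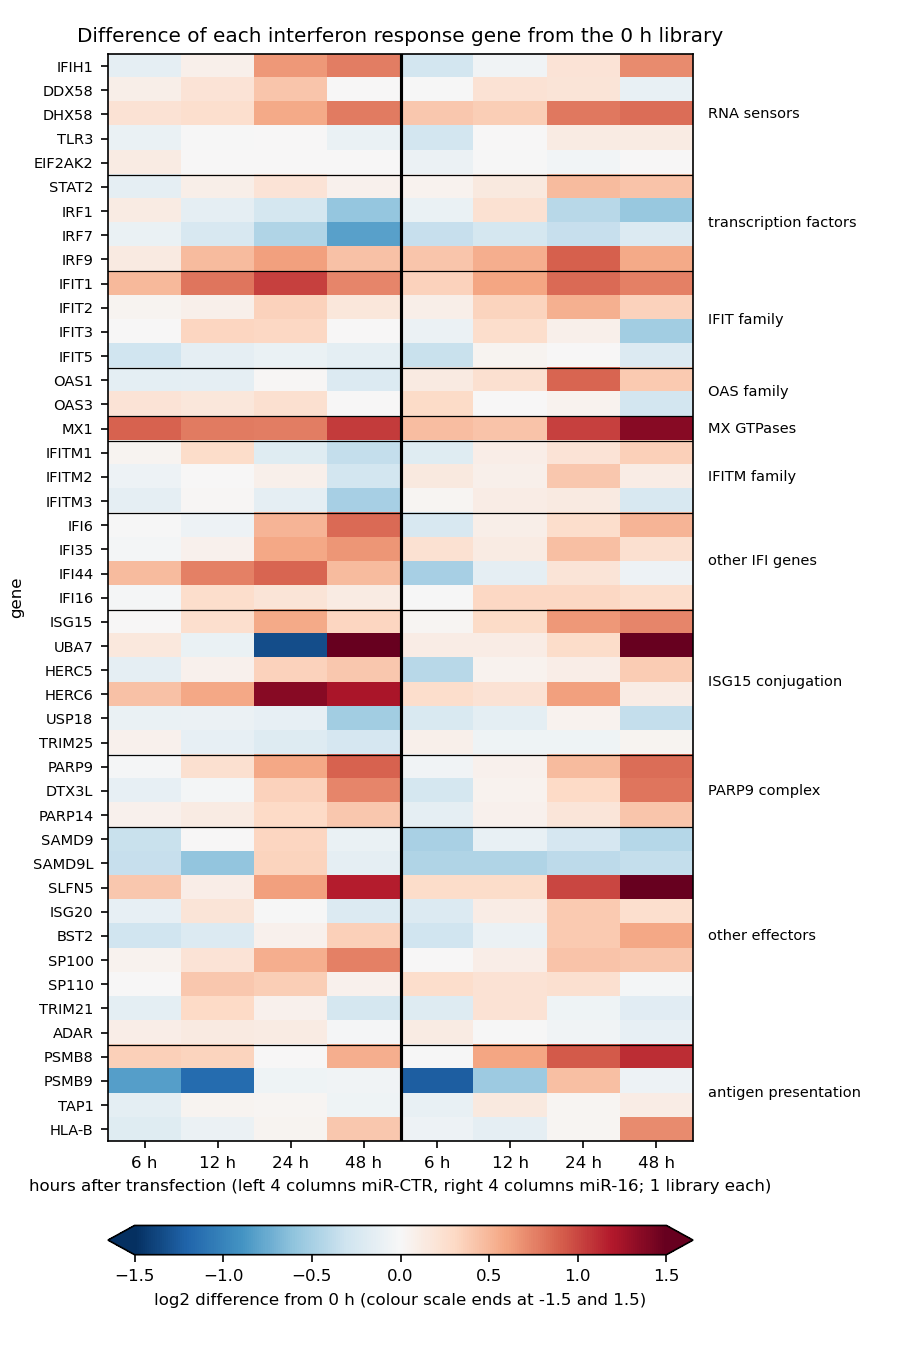
Difference of each of the 45 interferon response genes from the 0 h library on the log2 scale (colour, red higher and blue lower), in rows ordered by role, for miR-CTR (left 4 columns) and miR-16 (right 4 columns) at 6, 12, 24, and 48 h, 1 library each. MX1, IFIT1, and SLFN5 are red in all 8 columns, PSMB9 is blue at 6 and 12 h, and the strong colours of UBA7 rest on 1 to 26 reads.

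Of the 5 sensors, 2 (40.0%, IFIH1 and DHX58) were past 0.5 late with miR-CTR, compared with 11.0% of all genes. DHX58 alone (20.0%) was past it late with miR-16, compared with 14.1%. IFIH1 encodes MDA5, which binds long double-stranded RNA, and lies on chromosome 2 (GRCh38, 162267079 to 162318703, reverse strand). It was at 7.39 at 0 h, at 7.26, 7.47, 8.04, and 8.16 at 6, 12, 24, and 48 h with miR-CTR, and at 7.11, 7.34, 7.59, and 8.10 with miR-16. The late libraries of either mimic were thus above 0 h, by 0.71 ± 0.128 (counting SE) with miR-CTR and 0.455 ± 0.133 with miR-16. DHX58 encodes LGP2, a helicase that modulates MDA5 and RIG-I, and lies on chromosome 17 (42101404 to 42112733). It was at 7.23 at 0 h, at 7.45, 7.48, 7.80, and 8.01 with miR-CTR, and at 7.63, 7.60, 8.02, and 8.07 with miR-16. All 8 transfected libraries were above 0 h, and the late difference was 0.675 ± 0.136 with miR-CTR and 0.815 ± 0.136 with miR-16.

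The other sensors stayed within 0.5 of 0 h in both windows. DDX58, which encodes RIG-I, the sensor of short 5′-triphosphate RNA, was at 6.58 at 0 h, at 6.67, 6.78, 7.0, and 6.59 with miR-CTR, and at 6.57, 6.80, 6.77, and 6.47 with miR-16. TLR3, the endosomal receptor, was between 8.68 and 9.08 in all 9 libraries. EIF2AK2 encodes PKR, the kinase that stops translation on binding double-stranded RNA, and was between 10.82 and 11.03, with a late difference of 0.005 ± 0.04 with miR-CTR and -0.015 ± 0.041 with miR-16.

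The transcription factors diverged among themselves. IRF9 is a DNA-binding factor that acts with STAT2 (chromosome 14, 24161053 to 24166565). It was at 8.19 at 0 h, at 8.33, 8.67, 8.81, and 8.63 with miR-CTR, and at 8.61, 8.74, 9.09, and 8.76 with miR-16. All 8 transfected libraries were above 0 h, with a late difference of 0.53 ± 0.099 with miR-CTR and 0.735 ± 0.098 with miR-16. With quantile normalization the miR-CTR value was 0.497 and thus under the threshold. STAT2, its partner, was at 10.23 at 0 h, at 10.44 and 10.30 at 24 and 48 h in the miR-CTR arm, and at 10.70 and 10.66 with miR-16, and its late difference between the mimics was 0.31 ± 0.038.

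IRF7 is the factor that amplifies interferon synthesis and is itself induced by interferon. It was at 7.67 at 0 h, at 7.57, 7.43, 7.22, and 6.85 with miR-CTR, and at 7.33, 7.41, 7.33, and 7.46 with miR-16. It was the gene below 0 h in all 8 transfected libraries. Its late difference from 0 h was -0.635 ± 0.134 with miR-CTR and -0.275 ± 0.131 with miR-16. IRF1, a factor downstream of interferon gamma and NF-kB, was at 6.58 at 0 h and at 6.00 and 6.01 at 48 h with miR-CTR and miR-16. Of its annotated exon bases, 22.0% are shared with C5orf56 on the opposite strand.

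In the IFIT family, whose proteins bind foreign RNA ends and block their translation, 1 of 4 genes was higher late with each mimic. Of all genes, 11.0% were higher late with miR-CTR and 14.1% with miR-16. Early, 1 of 4 was higher with miR-CTR and 0 of 4 with miR-16, compared with 3.08% and 2.94% of all genes. IFIT1 lies on chromosome 10 (89392546 to 89406486) in a cluster with IFIT2, IFIT3, and IFIT5. It was at 7.37 at 0 h, at 7.86, 8.17, 8.39, and 8.10 with miR-CTR, and at 7.72, 7.96, 8.22, and 8.12 with miR-16. It was above 0 h from 6 h on, by 0.645 ± 0.13 early and 0.875 ± 0.127 late with miR-CTR (1.83-fold late) and by 0.47 ± 0.133 and 0.8 ± 0.13 with miR-16 (1.74-fold late).

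The neighbours of IFIT1 stayed within 0.5 of 0 h in both windows. IFIT2, the first of the cluster, was at 6.28 at 0 h, at 6.32, 6.36, 6.62, and 6.45 with miR-CTR, and at 6.37, 6.61, 6.81, and 6.63 with miR-16, all above 0 h but within 0.5 in the window means. IFIT3, which forms complexes with IFIT1, was at 8.51 at 0 h, at 8.51, 8.83, 8.82, and 8.51 with miR-CTR, and at 8.42, 8.77, 8.59, and 7.99 with miR-16. At 48 h it was thus no higher than at 0 h with miR-CTR and differed from it by -0.52 with miR-16. IFIT5 was between 7.79 and 8.16, with the highest transfected value in the miR-16 library at 12 h.

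MX1 is a dynamin-like GTPase that traps viral nucleocapsids (chromosome 21, 41420304 to 41459214). It was at 4.91 at 0 h, at 5.79, 5.69, 5.68, and 5.96 with miR-CTR, and at 5.37, 5.34, 5.93, and 6.27 with miR-16. All 8 transfected libraries were above 0 h, by 0.83 ± 0.296 early and 0.91 ± 0.295 late with miR-CTR, and by 0.445 ± 0.308 early and 1.19 ± 0.292 late with miR-16. These values rest on 28 reads at 0 h and 35 to 72 reads afterwards, and late fold changes were 1.88 with miR-CTR and 2.28 with miR-16.

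The OAS enzymes make the second messenger that activates RNase L. OAS1, on chromosome 12 (112906777 to 112933222), was at 6.74 at 0 h, at 6.59, 6.60, 6.76, and 6.53 with miR-CTR, and at 6.87, 6.98, 7.61, and 7.13 with miR-16. The miR-16 library was the higher at every time, and in the late window by 0.725 ± 0.128. OAS3, its neighbour, was at 8.80 at 0 h, at 9.01, 8.97, 9.04, and 8.81 with miR-CTR, and at 9.09, 8.81, 8.85, and 8.53 with miR-16. Its late difference between the mimics was -0.235 ± 0.068, of the opposite sign to that of OAS1.

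The IFITM proteins block the fusion of viruses with membranes, and all 3 genes were within 0.5 of 0 h in both windows. IFITM3 was at 11.52 at 0 h, at 11.38, 11.54, 11.39, and 11.02 with miR-CTR, and at 11.55, 11.63, 11.65, and 11.28 with miR-16. IFITM2 was at 10.50 at 0 h and between 10.23 and 10.91 afterwards. IFITM1 was at 6.38 at 0 h, at 6.42, 6.66, 6.20, and 6.02 with miR-CTR, and at 6.20, 6.48, 6.58, and 6.74 with miR-16. In the late window all 3 were higher with miR-16 than with miR-CTR, by 0.26, 0.355, and 0.55 for IFITM3, IFITM2, and IFITM1. In the annotation 32.5% of the exon bases of IFITM1 are also exon bases of IFITM2, so reads in them could be counted for either or for neither. The value of IFITM1 was under the threshold with quantile normalization (0.47), with a pseudocount of 10 (0.496), and at 24 h alone (0.38).

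Of the other IFI genes, 3 of 4 were past 0.5 with miR-CTR in the late window and 0 of 4 with miR-16, compared with 11.0% and 14.1% of all genes. IFI6, a mitochondrial and endoplasmic reticulum protein that inhibits flaviviruses, was at 8.35 at 0 h, at 8.34, 8.27, 8.86, and 9.20 with miR-CTR, and at 8.11, 8.44, 8.61, and 8.86 with miR-16. IFI35, a leucine zipper protein, was at 10.58 at 0 h, at 10.55, 10.65, 11.16, and 11.24 with miR-CTR, and at 10.81, 10.70, 11.03, and 10.82 with miR-16. In both genes the early miR-CTR libraries were near 0 h and the late ones above it, by 0.68 ± 0.092 and 0.62 ± 0.043. IFI16, a sensor of DNA, was at 11.66 at 0 h and between 11.64 and 11.97 afterwards.

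IFI44 was the interferon response gene with the largest early difference between the mimics. It lies on chromosome 1 (78649796 to 78664078) and encodes an antiviral protein whose mode of action is poorly defined. It was at 5.01 at 0 h, at 5.49, 5.77, 5.88, and 5.48 with miR-CTR, and at 4.51, 4.88, 5.20, and 4.93 with miR-16. Every miR-CTR library was above 0 h and above the miR-16 library of its time, and the differences between the mimics were -0.98 ± 0.379, -0.89 ± 0.314, -0.68 ± 0.307, and -0.55 ± 0.329 at 6, 12, 24, and 48 h. The libraries held 19 to 56 reads of the gene, with 30 at 0 h.

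**Figure D3:**
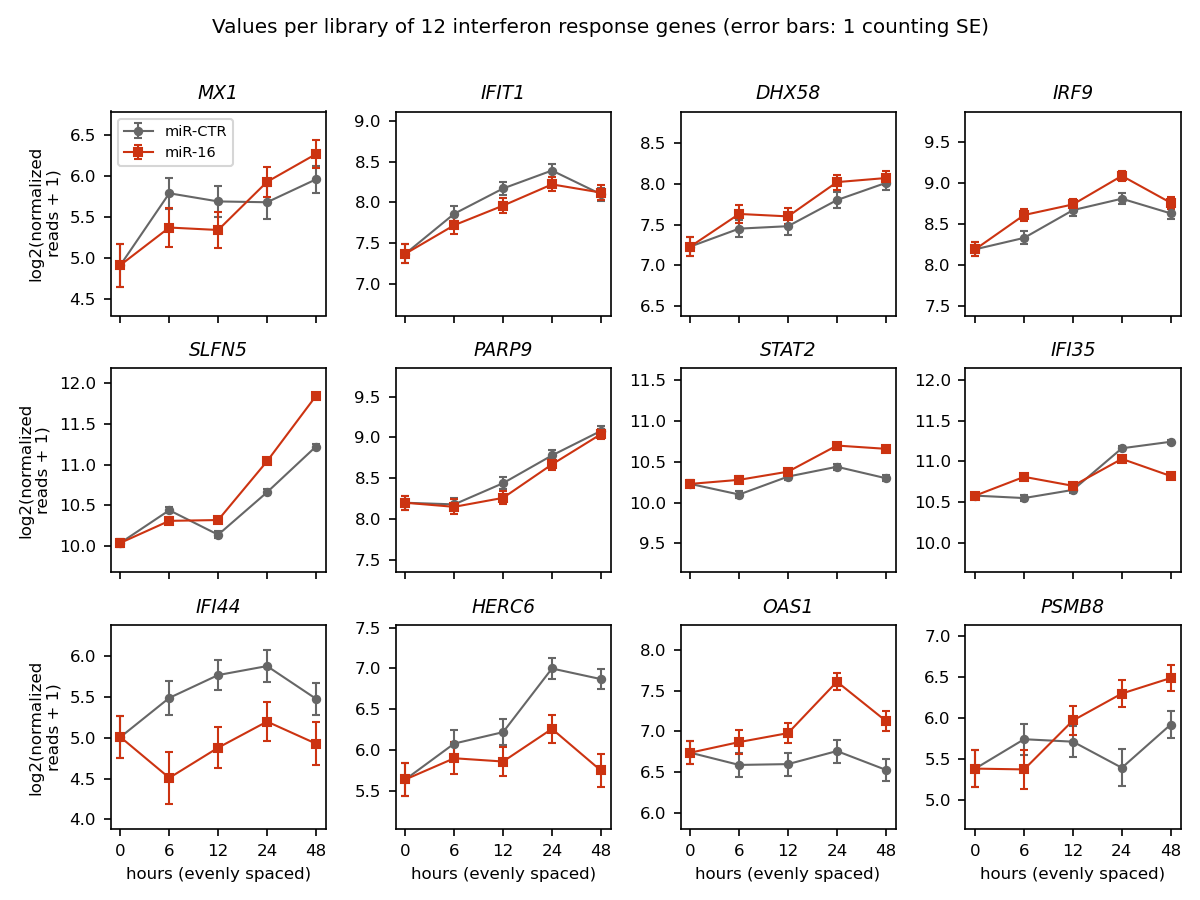
Values of 12 interferon response genes per library, as log2(normalized reads + 1), at 0, 6, 12, 24, and 48 h with miR-CTR (grey circles) and miR-16 (red squares), 1 library per point and the same 0 h library in both lines. Error bars are 1 counting SE, every panel spans the same height, and the lines of IFI44 and HERC6 lie lower with miR-16 while those of OAS1 lie higher.

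ISG15 is a small ubiquitin-like protein, and its conjugation to other proteins uses UBA7 as the activating enzyme, HERC5 as the ligase, and USP18 as the protease that removes it. ISG15, on chromosome 1 (1001138 to 1014540), was at 7.10 at 0 h, at 7.11, 7.35, 7.67, and 7.42 with miR-CTR, and at 7.13, 7.39, 7.75, and 7.83 with miR-16. All 8 transfected libraries were above 0 h, at 6 h by 0.01 with miR-CTR and 0.03 with miR-16, and the late difference was 0.445 ± 0.145 and 0.69 ± 0.144. HERC5 was at 9.06 at 0 h, at 9.41 and 9.47 at 24 and 48 h in the miR-CTR arm, and at 9.16 and 9.44 with miR-16.

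USP18, which also restrains the interferon receptor, was at 8.79 at 0 h, at 8.69, 8.70, 8.67, and 8.27 with miR-CTR, and at 8.56, 8.64, 8.84, and 8.43 with miR-16. It was thus below 0 h in 7 of the 8 transfected libraries. TRIM25, a ubiquitin ligase that activates RIG-I, was between 10.93 and 11.26. UBA7 had 4 reads at 0 h and 1 to 5 reads in 6 of the other libraries, with 21 and 26 reads at 48 h with miR-CTR and miR-16. Its late difference between the mimics of 1.095 ± 0.501 includes a library with 1 read, and no direction is read from it.

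HERC6, a relative of HERC5 and its neighbour on chromosome 4 (88378739 to 88443111), had the largest late difference from 0 h with miR-CTR. It was at 5.64 at 0 h, at 6.08, 6.22, 7.0, and 6.87 with miR-CTR, and at 5.90, 5.86, 6.26, and 5.75 with miR-16. The miR-CTR libraries were above 0 h at every time and late by 1.295 ± 0.225 (2.45-fold), while the miR-16 library at 48 h was near 0 h. The difference between the mimics was -0.18 ± 0.261, -0.36 ± 0.242, -0.74 ± 0.212, and -1.12 ± 0.235 at 6, 12, 24, and 48 h. The 2 miR-CTR libraries of the late window held 121 and 136 reads of HERC6 and those of miR-16 held 72 and 50.

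PARP9 and DTX3L form a complex of a macrodomain protein and a ubiquitin ligase that enhances interferon signalling. Their promoters face each other on chromosome 3, and their annotations overlap at their starts on opposite strands (PARP9 122527924 to 122564577, DTX3L 122564238 to 122575203). PARP9 was at 8.20 at 0 h, at 8.18, 8.44, 8.78, and 9.08 with miR-CTR, and at 8.15, 8.26, 8.67, and 9.04 with miR-16. DTX3L was at 8.99 at 0 h, at 8.87, 8.96, 9.33, and 9.72 with miR-CTR, and at 8.73, 9.04, 9.29, and 9.79 with miR-16. In both genes the 6 h libraries were below 0 h, the late ones above it, and the mimics close to each other, with a late difference between them of -0.075 ± 0.067 and 0.015 ± 0.054. At 24 h alone neither gene was past 0.5 with miR-16 (0.47 and 0.3). PARP14, a related ADP-ribosyltransferase, was at 9.97 at 0 h and at 10.38 and 10.39 at 48 h with miR-CTR and miR-16.

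Among the other effectors SLFN5 had the largest late difference with either mimic. SLFN5, a Schlafen protein of the nucleus, lies on chromosome 17 (35243036 to 35273655). It was at 10.04 at 0 h, at 10.44, 10.14, 10.66, and 11.22 with miR-CTR, and at 10.31, 10.32, 11.04, and 11.84 with miR-16. All 8 transfected libraries were above 0 h, and the late difference of 0.9 ± 0.051 with miR-CTR and 1.4 ± 0.05 with miR-16 corresponds to 1.87-fold and 2.64-fold. Between the mimics the late difference was 0.5 ± 0.031, at the threshold and not past it. SP100, a protein of nuclear bodies, was at 9.43 at 0 h, at 9.98 and 10.18 at 24 and 48 h in the miR-CTR arm, and at 9.86 and 9.83 with miR-16.

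The remaining effectors were within 0.5 of 0 h in both windows. SAMD9 and SAMD9L are neighbouring genes on chromosome 7 whose proteins restrict poxviruses. SAMD9L was at 6.65 at 0 h, at 6.31, 6.06, 6.98, and 6.51 with miR-CTR, and at 6.20, 6.20, 6.26, and 6.29 with miR-16, and SAMD9 was at 9.55 at 0 h and at 9.45 and 9.12 at 48 h. In the late window both were lower with miR-16 than with miR-CTR, by differences of -0.47 ± 0.152 and -0.45 ± 0.055. BST2, the tether that holds budding virions, was at 5.14 at 0 h and at 5.50 and 5.72 at 48 h with miR-CTR and miR-16. ISG20, SP110, and TRIM21 had late differences from 0 h between -0.12 and 0.32, and ADAR, the editor of double-stranded RNA, was between 12.98 and 13.23 in all 9 libraries.

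In antigen presentation the immunoproteasome subunits differed from TAP1 and HLA-B. PSMB9 was at 5.89 at 0 h, at 5.06, 4.74, 5.82, and 5.84 with miR-CTR, and at 4.65, 5.34, 6.34, and 5.81 with miR-16. It was the 1 gene of the 45 that was lower in the early window, by -0.99 ± 0.261 with miR-CTR and -0.895 ± 0.265 with miR-16, and late it was near 0 h. PSMB8 was at 5.38 at 0 h, at 5.74, 5.71, 5.39, and 5.92 with miR-CTR, and at 5.37, 5.97, 6.30, and 6.49 with miR-16. In the late window it was 1.015 ± 0.252 above 0 h with miR-16 and 0.275 ± 0.266 with miR-CTR. PSMB8 and PSMB9 overlap on opposite strands of chromosome 6 over 4.64% of the exon bases of PSMB8, and reads there cannot be told apart without strand. TAP1, the peptide transporter, was between 10.08 and 10.38, and HLA-B was at 10.62 at 0 h and at 11.02 and 11.33 at 48 h with miR-CTR and miR-16.

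Set directly against each other, the mimics differed past 0.5 in few of these genes, at shares near those of all genes. In the early window 0 of 45 were higher with miR-16 than with miR-CTR, compared with 2.04% of all genes, and 1 (IFI44) was lower, compared with 1.45%. In the late window 4 (8.89%; OAS1, IFITM1, UBA7, and PSMB8) were higher, compared with 7.76% of all genes, and 2 (4.44%; IFI44 and HERC6) were lower, compared with 5.73%. The median was -0.03 early and 0.085 late, and that of all genes 0.0 and 0.005. All 6 of the late genes belong to the lowest 25% of expression, and without these genes the counts were 0 and 0. At all 4 times miR-16 was above miR-CTR for 10 of 45 genes (22.2%, compared with 17.71% of all genes) and below it for 8 (17.8%, compared with 16.75%). The genes within 0.1 of the threshold in the late window were IFITM1 at 0.55, SLFN5 at 0.5, ISG20 at 0.43, SAMD9L at -0.47, and SAMD9 at -0.45.

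The difference between the mimics was also tested over the 8 transfected libraries, with limma, the time as a block, and a mean-variance trend. This test was added after the data were seen. The 4 times take the place of replicates in it, so its error includes any change of the difference with time. Of the 45 genes, 3 (6.67%) were higher with miR-16, compared with 4.93% of all genes, and 2 (4.44%) were lower, compared with 5.73%, at a Benjamini-Hochberg adjusted p under 0.05. Higher were OAS1, by 0.528 ± 0.122 (SE; limma adjusted p = 0.0276), IFITM2, by 0.252 ± 0.065 (limma adjusted p = 0.0389), and IFITM3, by 0.195 ± 0.054 (limma adjusted p = 0.0486). Lower were IFI44, with a difference of -0.775 ± 0.167 (limma adjusted p = 0.022), and HERC6, with -0.6 ± 0.166 (limma adjusted p = 0.0474). Each of these 5 genes had its direction at 4 of 4 times. Without the trend 0 of the 45 genes and 0 of all genes were called, and 9 of the 45 (20.0%) had an unadjusted limma p under 0.05, compared with 25.8% of all genes. Without the block, without the 12 h pair, or without the 24 h pair, 0 of the 45 were called. In these fits 4 (8.89%), 10 (22.2%), and 7 (15.6%) had an unadjusted limma p under 0.05. Of all genes, 11.9%, 26.6%, and 16.8% had one. Without the 48 h pair, 1 (2.22%, OAS1) was higher, compared with 3.75% of all genes, and 1 (2.22%, IFI44) lower, compared with 4.26%. As each time was left out, the limma adjusted p ranged from 0.0146 to 0.149 for IFI44 and from 0.0186 to 0.205 for OAS1. This limma adjusted p ranged from 0.0223 to 0.25 for HERC6, from 0.0449 to 0.241 for IFITM2, and from 0.0539 to 0.269 for IFITM3. IFITM3 was thus called in none of these fits.

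**Figure D4:**
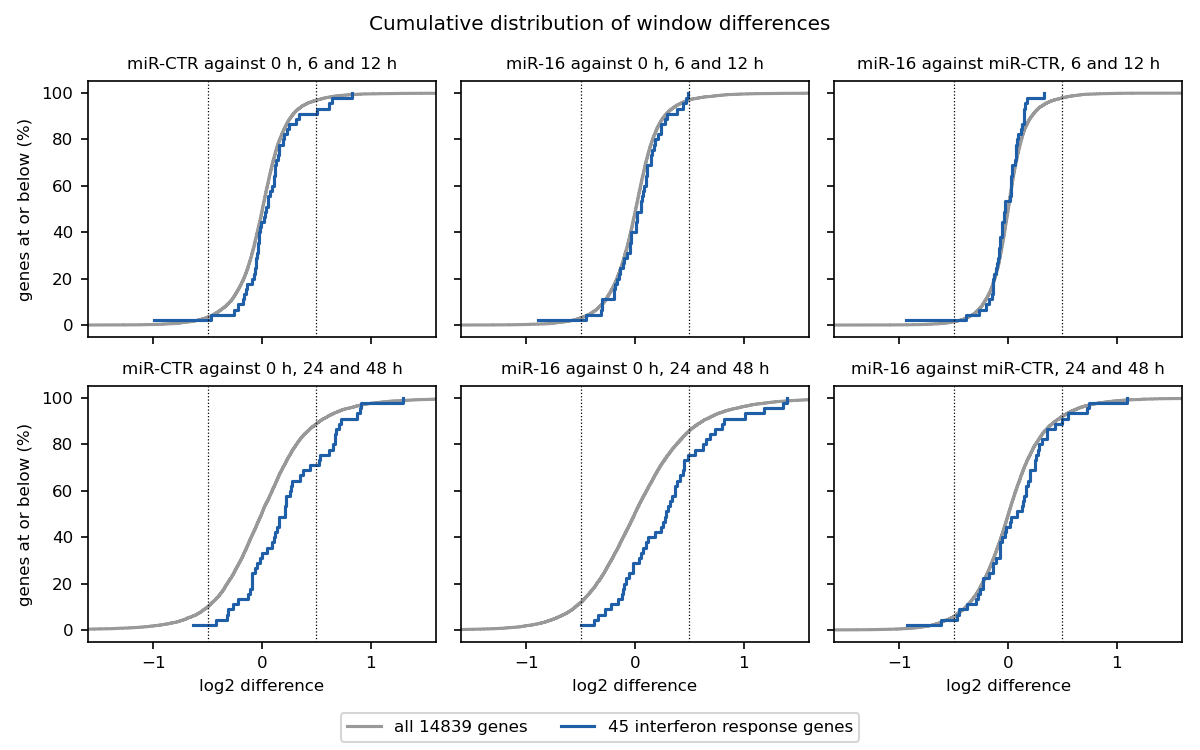
Cumulative share of genes (%) at or below each log2 difference, for the 45 interferon response genes (blue) and all 14839 genes (grey), in the early (upper row) and late (lower row) windows; dotted lines mark -0.5 and 0.5. The curves are close in the early window and between the mimics, and in the late comparisons with 0 h the blue curve lies to the right (medians 0.21 and 0.285, against 0.0 and -0.005 of all genes).

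The binding sequence of the interferon regulatory factors was looked for in the promoters, taken as 250 bases before to 50 bases after the start site in RefSeq (GRCh38.p14), of the 37 interferon response genes that were matched. The motif searched was GAAANNGAAA, on either strand, and overlapping matches were all counted. It was present in 21 of 37 promoters (56.8%), compared with 267 of 9599 measured genes (2.78%) and 3.65% of all 27305 promoters. It did not divide the genes by their values: of the matched genes that were higher late with miR-CTR, 6 of 11 (54.5%) held it, and of those that were not, 15 of 26 (57.7%). The median late difference with miR-CTR was 0.155 for the 21 genes with the motif and 0.188 for the 16 without, and with miR-16 it was 0.24 and 0.355. A match is a description of the letters and not a binding site.

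The 6 stretches below are shown to set genes with large and small late differences beside each other. Each is read along the strand of its gene, and capitals mark the motif or its reverse complement.
IFIT1, chr10:89392497-89392526, forward strand: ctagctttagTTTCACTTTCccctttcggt
MX1, chr21:41420559-41420588, forward strand: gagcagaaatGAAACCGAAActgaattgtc
IFI44, chr1:78649761-78649790, forward strand: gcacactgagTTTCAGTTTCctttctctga
ISG15, chr1:1013380-1013409, forward strand: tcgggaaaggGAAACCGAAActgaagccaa
EIF2AK2, chr2:37156967-37156996, reverse strand: agtccaagggGAAAACGAAActgagaacca
TRIM21, chr11:4393666-4393695, reverse strand: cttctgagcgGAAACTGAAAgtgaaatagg
The first 4 genes had late differences from 0 h of 0.875, 0.91, 0.67, and 0.445 with miR-CTR. EIF2AK2 and TRIM21, with the same kind of stretch, had 0.005 and -0.095. The promoter of HERC6, with a late difference of 1.295, held no match in this window.

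Seed matches of miR-16 were looked for in the longest annotated 3′UTR of each gene (GENCODE version 29, GRCh38), as 7 bases opposite the seed (7mer-m8), the same with a following A (8mer), or the 7mer-A1. Of the 45 interferon response genes 10 (22.2%) held at least 1 match, compared with 33.2% of the 11607 measured genes with a 3′UTR. The late difference between miR-16 and miR-CTR had a median of -0.065 in the 10 genes and 0.15 in the other 35, compared with -0.08 and 0.02 among all genes with and without a match. The 10 genes ranged from -0.93 (HERC6) to 0.725 (OAS1). The stretches of these genes are shown because they are the extremes, and capitals mark the bases that match.
HERC6, chr4:88436919-88436943, forward strand: ttctagatgaTGCTGCTgatgacat
HERC6, chr4:88443039-88443063, forward strand: ctttcactttTGCTGCTtcactgcc
OAS1, chr12:112932641-112932666, forward strand: gtaataaaacTGCTGCTAtttactca
HERC6 held 7mer-m8 matches and was lower with miR-16, and OAS1 held an 8mer and was higher. Any transcript with a coding sequence could supply the longest 3′UTR, so a match can lie outside the 3′UTR of other transcripts. The HERC6 matches start at bases 1058 and 2274 of the 3′UTR, closer than on the chromosome, so an intron lies between them. The IRF9 stretch is split between exons. Which transcripts the cells express was not tested. IFI44, which was lower with miR-16 at every time, held no match.

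The genes around the response were described by lists of the pathway. Of 14 genes that carry the signal of the sensors, 0 were past 0.5 early with either mimic. Of all genes, 3.08% and 2.94% were higher early with miR-CTR and miR-16, and 3.25% and 3.05% lower. Late 1 of the 14 (7.14%) was higher with miR-CTR (TANK, an adaptor of the kinase TBK1, at 0.575), compared with 11.0% of all genes. With this mimic 0 were lower, compared with 9.79%. Under miR-16 1 (7.14%) was higher late (IRF2 at 0.575, outside the naming rule), compared with 14.1%. TBK1 itself, at -0.59, was the 1 (7.14%) that was lower late with miR-16, compared with 11.7%. Of 13 genes of the receptor and the JAK-STAT pathway, 0 were past 0.5 in any window with either mimic, beside the same shares of all genes. IFNB1 was not analysed here, and 2 of the 21 listed interferons and chemokines had a row.

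CXCL8, the chemokine interleukin-8, is 1 of these. It was at 6.45 at 0 h, at 5.22, 5.55, 4.82, and 3.87 with miR-CTR, and at 5.32, 5.46, 4.93, and 4.88 with miR-16. All 8 transfected libraries were below 0 h, early by -1.065 ± 0.219 (counting SE) with miR-CTR and -1.06 ± 0.223 with miR-16 and late by -2.105 ± 0.267 and -1.545 ± 0.245. CXCL8 belongs to the lowest 25% of expression, on 83 reads at 0 h and 16 to 48 reads afterwards. CXCL3, named after its values were seen, had early differences of -0.525 ± 0.318 and -0.505 ± 0.322 and late ones of -0.04 ± 0.301 and 0.055 ± 0.305. It also belongs to the lowest 25%, on 22 to 47 reads per library.

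Of 14 further genes of class I presentation, 3 (21.4%) were higher in the late window with each mimic, compared with 11.0% of all genes with miR-CTR and 14.1% with miR-16, and 1 (7.14%) was lower, compared with 9.79% and 11.7%. HLA-F, a non-classical class I molecule, was at 6.26 at 0 h and at 7.29 and 7.10 at 48 h with miR-CTR and miR-16. CALR, the chaperone calreticulin, was at 15.14 at 0 h and at 14.36 and 13.93 at 48 h. PSMB10, another immunoproteasome subunit, was 0.585 above 0 h late with miR-CTR and at -0.005 with miR-16.

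Of 23 further interferon-stimulated genes with a row, out of 35 listed, 4 were higher and 2 lower in the late window with miR-CTR, and 4 were higher and 0 lower with miR-16. The shares that were higher (17.4% with each mimic) stand beside the 11.0% and 14.1% of all genes given above. Those that were lower (8.7% with miR-CTR and 0 with miR-16) stand beside 9.79% and 11.7%. GBP2, a guanylate-binding protein induced by interferon gamma, was at 3.96 at 0 h, at 4.18, 4.74, 5.28, and 5.45 with miR-CTR, and at 3.99, 3.21, 5.16, and 5.75 with miR-16. DDX60, a helicase linked to RIG-I, was at 7.22 at 0 h, at 7.27, 7.28, 8.14, and 8.65 with miR-CTR, and at 7.23, 7.28, 7.76, and 7.63 with miR-16. CD274, which encodes the checkpoint ligand PD-L1, was at 3.75 at 0 h, at 4.52, 4.18, 4.93, and 5.33 with miR-CTR, and at 3.89, 3.79, 4.07, and 4.66 with miR-16. Between the mimics, 2 of the 23 genes (8.7%) were lower late with miR-16, DDX60 (-0.7 ± 0.091) and CD274 (-0.765 ± 0.282). Another 2 (8.7%) were higher, TRIM22 (1.01 ± 0.307) and C19orf66 (0.575 ± 0.051). All genes gave 5.73% and 7.76%, and the median of the 23 genes was 0.03. C19orf66 was named after its values were seen. GBP2, CD274, and TRIM22 belong to the lowest 25% of expression, on 9 to 50, 12 to 46, and 14 to 42 reads per library. TRIM22 and NT5C3A were the 2 lower genes with miR-CTR, at -0.84 and -0.6.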

How the data were processed

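RNA sequencing of polyA RNA was performed in MP41 cells, with 1 library for each of 9 conditions. The submitters' processing notes name FastQC, STAR 2.4.0a, and featureCounts of Subread 1.5.0-p3, with the builds hg38 and GRCh38. The annotation, the strand setting, the size factors, and any filter are not given in the sources used here. The authors deposited log2 values with 2 decimals for 14839 genes, and no value was normalized again. After the log was undone and 1 taken away, every library had its own smallest step (0.8531 to 1.1493), the value of 1 read. When the step was taken from every other gene, 100% of the 521 to 689 values up to 20 in the genes left out were whole numbers of it within the rounding of 2 decimals, a tolerance that covers 14.9% to 19.6% of the range. Values at or under 5 number only 2 to 25 per library. The unit was therefore read as log2 of size-factor-scaled reads plus 1, the reads were recovered with the step, and the counting SE was derived from them. This recovery was tested on simulated data.

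The time codes of the table were matched to the labelled times by rank, since no label pairs them, and window means do not depend on the order within a window. With 1 library per condition, no test was run against 0 h or within a window. Between the mimics, limma 3.58.1 (R 4.3.3) was fitted to the log2 values of the 8 transfected libraries with time as a block, an analysis chosen after the data were seen. Genes past 0.5 on the log2 scale were counted over all genes, and the same count over all genes is the background. The members of the list, the pathway and marker lists, and the windows were chosen with earlier results of these data known. All listed genes with a row are named, and of each pathway list at most the 3 with the largest window change in each direction among those past 0.5 at both times. A result of 1 further gene is not reported here. DDX58 is the name the table gives to RIGI. Gene positions came from GENCODE version 29, and mature miRNA and promoter sequences from RefSeq (GRCh38.p14). The alternatives were quantile normalization, centring on the median gene, library totals, pseudocounts of 10 and 0.25, omission of the lowest 25% of genes, a 1.5-fold threshold, single times, both times of a window, and a 95% counting interval. For limma they were no trend, no block, and each time left out. Python 3.11.15, pandas 2.3.3, numpy 2.4.6, and matplotlib 3.10.9 were used.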

Additional observations from a re-analysis of the deposited data

How the results depend on the processing

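The counts of interferon response genes past the threshold, and their medians, were recomputed under each alternative, and with the limma counts 162 of these values stayed near the reported one and 30 moved. A count was near if it was within 1.5-fold of the reported one. A median was near if it was within a 95% counting interval, built from the median counting SE of the genes. That interval is wide beside these medians, and -0.01 at 6 h alone with miR-CTR was near the early 0.035 by this rule. The 162 values are therefore no measure of stability. Without the lowest 25% of genes, 31 of the interferon response genes were left. Early counts were then 1 higher and 0 lower with miR-CTR, compared with 0.692% and 1.46% of all genes left, and 0 lower with miR-16. The late count with miR-16 was 7 higher, and the counts between the mimics were 0 lower early and 0 higher and 0 lower late. At the first time of a window alone, 1 gene was higher early with miR-CTR, compared with 3.53% of all genes. Between the mimics 4 were lower late in this setting. At the second time alone, 2 were lower early with miR-CTR, compared with 4.5% of all genes, and 3 were lower late. In the same setting 3 were higher early and 2 lower late with miR-16, and 1 was higher early between the mimics. With the threshold at both times, 1 was higher early with miR-CTR, compared with 1.62% of all genes, and 0 were lower late. Under miR-16 7 were higher late, and the shares of this count are given above. Centring on the median gene gave 1 higher early with miR-16, quantile normalization 2 lower late with miR-16, and a pseudocount of 10 gave 2 higher late between the mimics. Neither the omission of weak genes nor the rule of both times can raise a count. The share of all genes that were higher early with miR-CTR fell as well, from 3.08% to 0.692% without the weak genes. What moved the counts was not tested, and a count without the share of all genes beside it is no result about these genes. Of the values of single genes past the threshold, 267 kept their side of it, 18 did not, and 0 turned their sign.

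With 1 library per condition the spread between cultures is unknown, and differences between the mimics of the weakly expressed genes rest on few reads. The libraries of the mimics were paired by time in the limma fit, since no condition has replicates. It called 3 genes higher and 2 lower with miR-16, compared with 0 and 0 without the mean-variance trend, 0 and 0 without the time block, and 0 to 3 higher and 0 to 3 lower as each time was left out. The shares of all genes called are given above for the reported fit, the fit without the trend, and the fit without 48 h. Without 6 h, 7.48% of all genes were called higher and 8.7% lower. Without the block and without 12 h, both shares of all genes were smaller than in the reported fit. Without 24 h 0 of all genes were called, and 16.8% had an unadjusted limma p under 0.05. The cause was not tested. Genes near the threshold, such as IRF9 and DTX3L late with miR-CTR, change side under small changes.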

Other observations

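Genes of the NF-kB response and of double-stranded RNA handling were also read, as values with no test. Of 9 NF-kB target genes with a row, 1 (11.1%) was higher late with miR-CTR (NFKBIZ, 0.605), compared with 11.0% of all genes. With miR-16 2 (22.2%) were higher (NFKBIZ, 0.675, and ICAM1, 0.525, which was named after its values were seen), compared with 14.1%, and 1 (11.1%) was lower, compared with 11.7%. TNFAIP2 was higher early with miR-CTR, at 10.21 at 6 h and 10.21 at 12 h against 9.68 at 0 h. TNFAIP3, which encodes the inhibitor A20, was at 6.71 at 0 h, at 6.90, 7.05, 6.82, and 7.09 with miR-CTR, and at 6.81, 6.43, 6.07, and 5.96 with miR-16.

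Of 10 genes of double-stranded RNA handling and stress, 1 was lower late with miR-CTR, compared with 9.79% of all genes, and 3 with miR-16, compared with 11.7%. TARBP2, the partner of Dicer in loading small RNA, was at 10.72 at 0 h, at 10.79, 10.71, 10.44, and 10.31 with miR-CTR, and at 10.63, 10.15, 9.86, and 9.58 with miR-16. ATF3, a stress factor, was at 8.40 at 0 h and at 7.98 and 7.10 at 48 h with miR-CTR and miR-16. DDIT3, which encodes the stress factor CHOP, had a late difference from 0 h of -0.55 with miR-CTR and -0.59 with miR-16.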
